A study of Mus musculus with 12 samples.

Results

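The proteasome genes are the genes whose symbol in the array annotation begins with Psma, Psmb, Psmc, Psmd, Psme or Psmg and a digit. They were taken from probe sets that name 1 gene, and a gene measured by several probe sets was represented by the one with the highest mean. This gave 49 genes on 55 probe sets, of 19938 genes measured by a probe set that names no other gene and 35511 probe sets in all. Of the 49 genes, 45 encode subunits, activators or assembly chaperones of the proteasome of most tissues. Psma8 and Psmb11 encode core subunits of germ cells and of the thymus cortex. Psmc3ip, a factor of meiotic recombination, and Psme3ip1, a partner of Psme3, came in by their symbol and are not subunits. The probe set that names Psme2 together with Psme2b was left out.

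Pancreatic islets were isolated with collagenase from adult female mice, a few months old and on the 129Sv background, and their RNA was hybridised to Affymetrix MoGene_1.0_ST arrays. The 4 groups of 3 biological replicates were Prlr-/- mice at pregnancy day 9.5 (P9.5), Prlr+/+ mice at P9.5, non-pregnant (NP) Prlr-/- mice and NP Prlr+/+ mice. Prlr-/- mice lack the prolactin receptor in all tissues, and those that were pregnant carried a progesterone pellet that the Prlr+/+ mice did not, so that the genotype and the pellet cannot be told apart at P9.5, nor can pregnancy and the pellet in the change of Prlr-/- islets. The same holds for the difference between the genotypes in that change. The labels do not say whether a replicate was 1 mouse or a pool, so the p-values measure the spread between these arrays.

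The proteasome is the protease that breaks down proteins tagged with ubiquitin. Its 20S core is a stack of outer alpha rings and inner beta rings, and the beta subunits Psmb5, Psmb6 and Psmb7 carry the cutting activities. The 19S cap sits on the core. Its base holds the Psmc ATPases, which unfold the substrate and open the alpha ring, and its lid holds the enzyme that removes ubiquitin. In immune cells, and in other cells after interferon, Psmb8, Psmb9 and Psmb10 replace the 3 constitutive catalytic subunits to form the immunoproteasome. Islets enlarge and make more insulin during pregnancy, and beta cells rely on protein quality control because they synthesise large amounts of a secreted protein.

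All levels are log2 values, rounded by the authors to steps of 0.1, and all changes are differences of log2 means. A gene was called where limma gave a fold change of at least 1.5 and a Benjamini-Hochberg adjusted p under 0.05 over all probe sets. Each of the 49 genes was tested, with no filter on low values. Arrays of the same group correlated at 0.979 to 0.987. In Prlr+/+ P9.5 replicate 2, Xist was at 3.8, against 10 to 10.7 in the other 11 arrays, while the Y-linked genes were as low as elsewhere. Prlr itself was not analysed here, so the genotype labels were not checked by its level. The mean of 9 beta cell markers lay between 10.6 and 10.9 on every array, with members moving both ways. At P9.5 Ucn3 was called higher in both genotypes (0.60 in each), and Mafa (-0.67) and Nkx6-1 (-0.73) were called lower in Prlr+/+ islets, with -0.30 and -0.37 in Prlr-/- islets.

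Proteasome genes were higher in islets of pregnant mice in both genotypes. In Prlr-/- islets 12 of the 49 genes (24.5%) were called higher at P9.5 than in NP mice and 0 lower, where 7.44% of all probe sets were called higher and 7.09% lower. In Prlr+/+ islets 13 genes (26.5%) were called higher and 0 lower, where 5.73% of all probe sets were called higher and 4.21% lower. By the adjusted p alone, 30 genes passed as higher and 1, Psmb11, as lower in Prlr-/- islets, against 15.6% and 17.7% of all probe sets. In Prlr+/+ islets 25 passed as higher and 0 as lower, against 11.5% and 10.3%.

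The 3 P9.5 arrays lay above the 3 NP arrays for 35 genes (71.4%) in Prlr-/- islets, where 19.4% of all probe sets did so, and for 28 genes (57.1%) in Prlr+/+ islets, where 15.0% did so. The median change of the 49 genes was 0.43 in Prlr-/- islets and 0.40 in Prlr+/+ islets, against -0.07 for all probe sets in each. The change with pregnancy moved with the level of a probe set. Among probe sets of 1 gene with a mean level of 7 to 10, the median change was 0.23 in Prlr-/- and 0.10 in Prlr+/+ islets, and 16.0% and 12.1% were called higher. At that level lie 39 of the proteasome genes, of which 11 (28.2%) were called higher in Prlr-/- and 12 (30.8%) in Prlr+/+ islets, with medians of 0.47 and 0.40. By the adjusted p alone 27 (69.2%) and 23 (59.0%) of the 39 passed as higher, against 38.2% and 27.1% of the probe sets at that level. The P9.5 arrays lay above the NP arrays for 31 (79.5%) and 26 (66.7%), against 46.7% and 31.6%.

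The number of calls rested in part on the scaling of the arrays. With each array centred on its median, 27 genes (55.1%) were called higher in Prlr-/- and 15 (30.6%) in Prlr+/+ islets, where 13.6% and 7.42% of all probe sets were. After quantile or cyclic loess normalization of the deposited values Psmb4, Psmd6, Psmd14 and Psmg2 were the 4 genes (8.16%) called in Prlr-/- islets, a share near that of all probe sets called higher (6.94% after quantile normalization and 5.93% after cyclic loess). The 9 genes (18.4%) then called in Prlr+/+ islets were Psma1 to Psma5, Psmc6, Psmd6, Psmd14 and Psmg2, where 4.95% and 4.94% of all probe sets were called higher. The other calls still passed by the adjusted p and fell short of the fold minimum. By the adjusted p alone 22 and 20 genes then passed as higher after quantile normalization, and 17 and 20 after cyclic loess, where 14.8% and 10.6% of all probe sets passed after quantile normalization and 13.3% and 10.6% after cyclic loess. Over the 3 scalings tried, 43 to 46 of the 49 genes had a positive estimate in Prlr-/- islets and 43 to 44 in Prlr+/+ islets. Without Prlr+/+ P9.5 replicate 2, the array with low Xist, 11 genes were called in Prlr+/+ islets.

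Some markers of other cells moved with pregnancy too. The mean of 12 acinar cell markers was 8.83 to 10.2 in Prlr-/- P9.5 islets, against 10.1 to 10.9 in Prlr-/- NP islets, and 9.16 to 10.2 in Prlr+/+ P9.5 islets, against 9.85 to 10.3 in Prlr+/+ NP islets. In Prlr-/- islets 9 of the 12 were called lower and 1 higher, and in Prlr+/+ islets 0 lower and 1 higher, with medians of -1.27 and -0.53. The mean of 13 immune markers was 5.66 to 5.86 in Prlr-/- P9.5 islets, against 5.65 to 5.78 in Prlr-/- NP islets, and 5.78 to 5.94 in Prlr+/+ P9.5 islets, against 5.69 to 6.03 in Prlr+/+ NP islets. Its members went both ways: Cd74, of antigen-presenting cells, was called lower in Prlr+/+ islets (-0.77) and was at -0.50 in Prlr-/- islets. By the adjusted p alone 3 immune markers, Cd74, Cd3e and Cd79a, passed as lower in Prlr-/- islets, and 1, Ptprc, passed as higher in each genotype (0.57 in Prlr-/-, 0.53 in Prlr+/+). Of 10 endothelial markers 2 were called higher in Prlr-/- islets and 2 lower in Prlr+/+ islets. Of 9 stromal markers 0 and 1 were called lower, and of 6 ductal markers 1 in each genotype. Over all probe sets 7.44% were called higher and 7.09% lower in Prlr-/- islets, and 5.73% and 4.21% in Prlr+/+ islets. At a level of 7 to 10, 16.0% and 12.1% of the probe sets of 1 gene were called higher. Lists this short cannot show whether 1 or 2 calls exceed those shares. The part of these cells in the proteasome values was not tested, and in whole islets more RNA per cell and more cells of a type cannot be told apart.

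**Figure D1:**
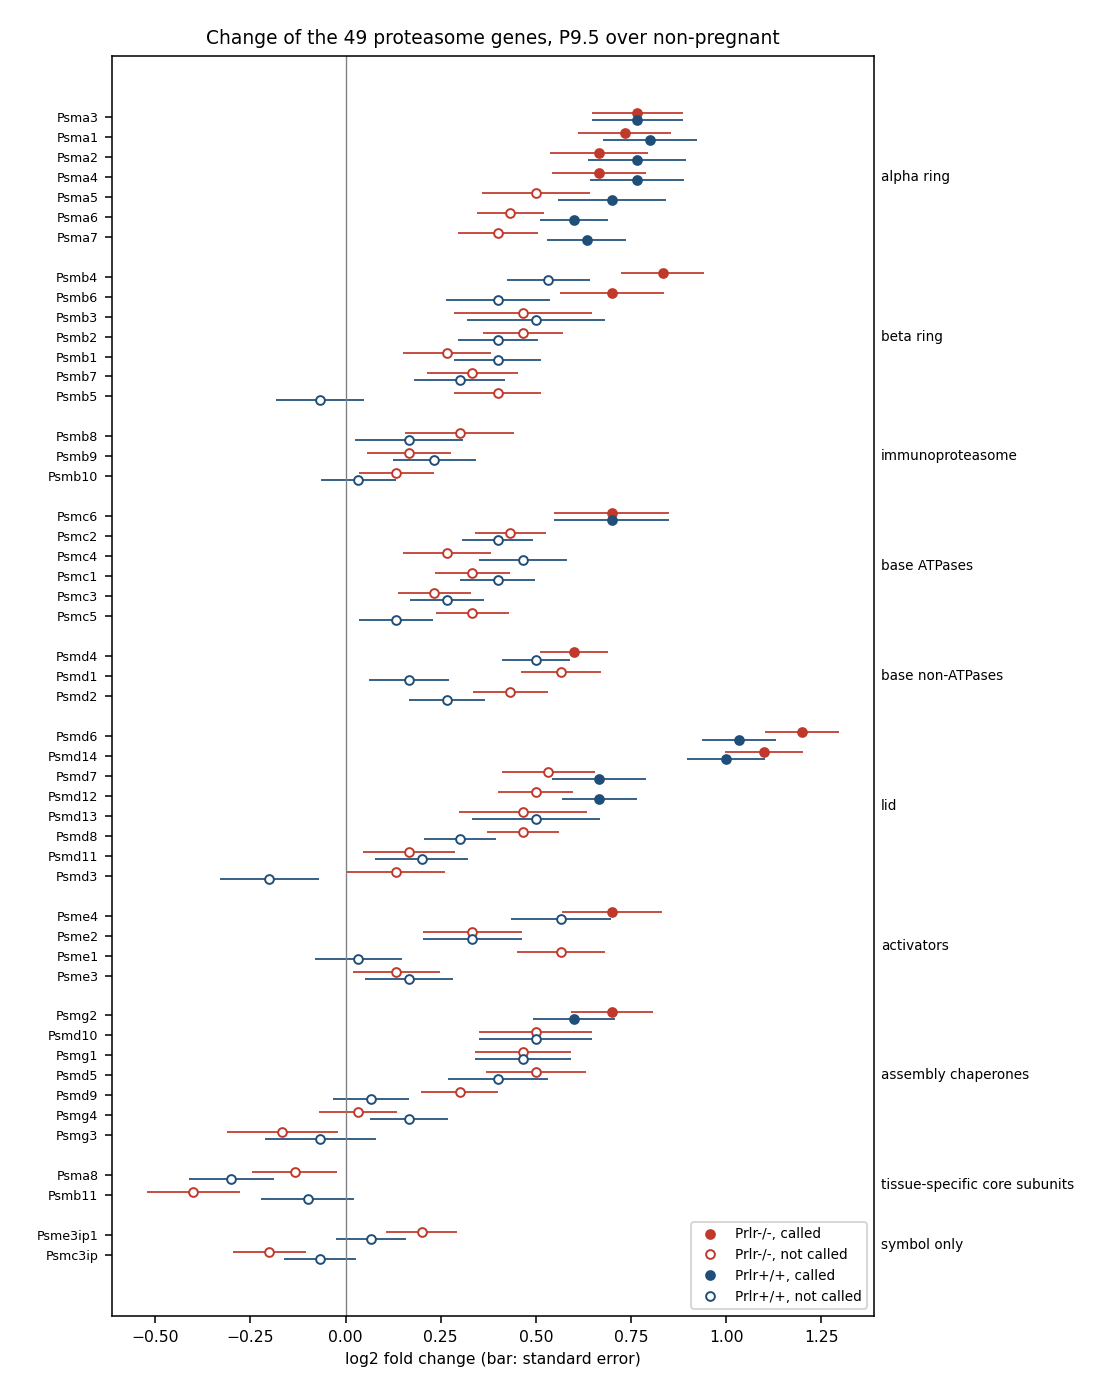
Change with pregnancy (P9.5 over NP, x axis, log2 fold change with standard error) of each of the 49 proteasome genes, grouped by class, in Prlr-/- islets (red) and Prlr+/+ islets (blue). Filled points are called genes. Psmd6 and Psmd14 lie farthest to the right in both genotypes, at 1.2 and 1.10 in Prlr-/- and 1.03 and 1.00 in Prlr+/+ islets, and the immunoproteasome genes lie between 0.03 and 0.30.

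Both genotypes shared 8 calls: Psma1, Psma2, Psma3, Psma4, Psmc6, Psmd6, Psmd14 and Psmg2. They made up 66.7% of the calls in Prlr-/- and 61.5% of those in Prlr+/+ islets. The 2 comparisons have no array in common, but they share the estimate of each gene's spread, since all groups were fitted together. The share of common calls over all probe sets was not computed, so the overlap cannot be read as particular to these genes. Psmb4, Psmb6, Psmd4 and Psme4 were called in Prlr-/- islets, and Psma5, Psma6, Psma7, Psmd7 and Psmd12 in Prlr+/+ islets. Psma5 stands there by its brightest probe set, while its other probe set was called in both genotypes. None of these 9 genes was called by the interaction test given further on, which compares the change with pregnancy between the genotypes. The 95% confidence intervals leave room for a difference, as for Psmb6 (0.30, -0.12 to 0.72) and Psma7 (-0.23, -0.56 to 0.09).

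Since many of these genes were higher at P9.5, RefSeq promoter windows (GRCm38.p6) were searched for 4 motifs on both strands. The windows run from 250 bases before to 50 bases after a gene's start, and 41 of the 49 genes have at least 1, with 45 windows in all. The 120 bases before the start are shown for the genes with the largest rises in the lid (Psmd6, Psmd14) and, in Prlr-/- islets, the alpha ring (Psma3), for both catalytic genes with a motif match (Psmb5, Psmb6) and for the immunoproteasome gene Psmb8. Capitals mark motif matches, of which the bases shown of Psmd6, Psmd14 and Psma3 hold none.
Psmd6, chr14:14120946-14121065, minus strand: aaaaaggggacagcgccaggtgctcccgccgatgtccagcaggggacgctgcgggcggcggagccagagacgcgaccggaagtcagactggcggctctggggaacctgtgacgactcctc
Psmd14, chr2:61711574-61711693, plus strand: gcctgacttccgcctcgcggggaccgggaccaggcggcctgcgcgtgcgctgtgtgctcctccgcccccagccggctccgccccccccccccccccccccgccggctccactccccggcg
Psma3, chr12:70974503-70974622, plus strand: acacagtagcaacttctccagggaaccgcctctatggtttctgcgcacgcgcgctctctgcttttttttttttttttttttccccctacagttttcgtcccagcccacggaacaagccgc
Psmb5, chr14:54617996-54618115, minus strand: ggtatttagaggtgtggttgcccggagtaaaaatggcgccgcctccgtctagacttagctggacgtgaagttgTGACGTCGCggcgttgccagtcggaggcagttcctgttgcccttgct
Psmb6, chr11:70525237-70525356, plus strand: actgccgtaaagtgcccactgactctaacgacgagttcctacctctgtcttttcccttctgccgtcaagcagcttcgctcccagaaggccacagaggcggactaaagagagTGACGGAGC
Psmb8, chr17:34198075-34198194, plus strand: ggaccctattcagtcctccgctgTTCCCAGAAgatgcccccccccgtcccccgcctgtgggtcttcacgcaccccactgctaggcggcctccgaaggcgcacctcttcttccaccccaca

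The core of the antioxidant response element (TGACNNNGC), to which Nfe2l1 and Nfe2l2 bind, was in 6 of the 45 windows (13.3%) and in 12.4% of all 32851 promoter windows. It was in the windows of Psmb5, Psmb6, Psmc6, Psmd9, Psmd12 and Psme4, and the match of Psmb6 ended at the last base before the start. The motif of STAT5 (TTCNNNGAA), the factor that acts downstream of the prolactin receptor, was in 3 windows (6.67%), those of Psmb8, Psmd2 and Psmg1, and in 8.30% of all windows. The CCAAT box (CCAAT) was in 16 windows (35.6%) and in 37.4% of all. The interferon-stimulated response element core was in 5 windows (11.1%), those of Psmb3, Psmd4, Psmd9, Psme1 and Psmg4, and in 3.44% of all. A match describes the letters only, and binding was not measured.

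The 7 alpha ring genes, whose products form the gate of the core, rose as a group. All 7 passed by the adjusted p in both genotypes, with a median change of 0.67 in Prlr-/- and 0.77 in Prlr+/+ islets. Of the probe sets of 1 gene at a level of 7 to 10, 38.2% and 27.1% passed as higher. Psma1 was at 8.6, 8.5 and 8.6 in Prlr-/- P9.5 islets, against 7.8, 7.9 and 7.8 in Prlr-/- NP islets, and at 8.7, 8.6 and 8.8 in Prlr+/+ P9.5 islets, against 8.2, 7.8 and 7.7 in Prlr+/+ NP islets. The difference came to 0.73 ± 0.12 (standard error; limma, adjusted p = 0.00127) in Prlr-/- and 0.80 ± 0.12 (adjusted p = 0.00139) in Prlr+/+ islets. The P9.5 and NP arrays did not overlap in either genotype, for this gene or for the other 6.

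Psma3, measured by 3 probe sets, was at 8.8, 8.7 and 8.9 in Prlr-/- P9.5 islets, against 8.1, 8 and 8 in Prlr-/- NP islets. Prlr+/+ islets had 8.8, 8.7 and 9 at P9.5, against 8.3, 7.9 and 8 in NP mice. The change was 0.77 in each genotype, and the 3 probe sets gave 0.73 to 0.87 in Prlr-/- and 0.73 to 0.80 in Prlr+/+ islets, each one called. Psma2 and Psma4 changed by 0.67 in Prlr-/- and 0.77 in Prlr+/+ islets.

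Psma7 was at 8.4, 8.3 and 8.3 in Prlr-/- P9.5 islets, against 8, 7.9 and 7.9 in Prlr-/- NP islets. In Prlr+/+ islets it was at 8.7, 8.5 and 8.7 at P9.5, against 8.2, 7.9 and 7.9 in NP mice. Its change of 0.40 in Prlr-/- islets was below the fold minimum, and that of 0.63 in Prlr+/+ islets was above it. Psma5 (0.50 in Prlr-/-, 0.70 in Prlr+/+) and Psma6 (0.43 and 0.60) had the same pattern of calls. A second probe set of Psma5 was called in both genotypes, at 0.60 and 0.63.

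In Prlr-/- islets, Psma2 lost its call without Prlr-/- P9.5 replicate 1. In Prlr+/+ islets, Psma6 and Psma7 lost theirs without Prlr+/+ NP replicate 2 or 3, and Psma6 also without Prlr+/+ P9.5 replicate 1 or 2.

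Of the 7 beta ring genes, 4 passed by the adjusted p in Prlr-/- and 3 in Prlr+/+ islets, with medians of 0.47 and 0.40. These shares of 57.1% and 42.9% stand against 38.2% and 27.1% of probe sets of 1 gene at a level of 7 to 10. Called higher were 28.6% and 0%, against 16.0% and 12.1% at that level. Psmb4, a structural subunit that faces the other beta ring, had the largest change: 8.9, 8.9 and 8.8 in Prlr-/- P9.5 islets, against 8.2, 7.9 and 8 in Prlr-/- NP islets, and 8.8, 8.9 and 8.7 in Prlr+/+ P9.5 islets, against 8.4, 8.3 and 8.1 in Prlr+/+ NP islets. It rose by 0.83 ± 0.11 (standard error; limma, adjusted p = 0.000333) in Prlr-/- islets and was called. In Prlr+/+ islets its change of 0.53 (adjusted p = 0.0058) passed by the adjusted p but not by the fold minimum. The other structural subunits, Psmb1, Psmb2 and Psmb3, changed by 0.27 to 0.47 in Prlr-/- and by 0.40 to 0.50 in Prlr+/+ islets, and none was called.

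Of the 3 catalytic subunits, only Psmb6 was called, and only in Prlr-/- islets. Psmb6, which cuts after acidic residues, was at 9.2, 9 and 9.1 in Prlr-/- P9.5 islets, against 8.4, 8.5 and 8.3 in Prlr-/- NP islets, and at 9.2, 8.8 and 9.1 in Prlr+/+ P9.5 islets, against 8.9, 8.5 and 8.5 in Prlr+/+ NP islets. The groups were apart in Prlr-/- islets, with a called change of 0.70 ± 0.14 (standard error; limma, adjusted p = 0.00288). They overlapped in Prlr+/+ islets, where the change was 0.40 (adjusted p = 0.0556).

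Psmb7, which cuts after basic residues, was at 9, 9.1 and 9 in Prlr-/- P9.5 islets, against 8.7 on each Prlr-/- NP array. Prlr+/+ islets had 9.2, 9 and 9.2 at P9.5, against 9.1, 8.6 and 8.8 in NP mice. Its change was 0.33 (adjusted p = 0.0508 from limma) in Prlr-/- and 0.30 (adjusted p = 0.0943) in Prlr+/+ islets, so that it passed in neither.

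Psmb5, which cuts after hydrophobic residues and is the target of the drug bortezomib, was at 8.3, 8.4 and 8.1 in Prlr-/- P9.5 islets, against 8, 7.9 and 7.7 in Prlr-/- NP islets. In Prlr+/+ islets it was at 8.2, 8.2 and 8 at P9.5, against 8.3, 8.1 and 8.2 in NP mice. The estimates were 0.40 ± 0.11 (standard error; limma, adjusted p = 0.0203) in Prlr-/- islets and -0.07 ± 0.11 (adjusted p = 0.709) in Prlr+/+ islets, where it was the 1 gene of the 14 constitutive core genes with a negative estimate.

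The immunoproteasome genes were not called in any comparison. Psmb8, the counterpart of Psmb5, was at 6.3 on each Prlr-/- P9.5 array, against 6.2, 6 and 5.8 in Prlr-/- NP islets, and at 6.5, 6.3 and 6 in Prlr+/+ P9.5 islets, against 6.3, 6 and 6 in Prlr+/+ NP islets. Its change was 0.30 (95% confidence interval -0.01 to 0.61, adjusted p = 0.125 from limma) in Prlr-/- and 0.17 (-0.15 to 0.48, adjusted p = 0.435) in Prlr+/+ islets. The arrays of the 2 stages were apart in Prlr-/- islets and overlapped in Prlr+/+ islets.

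Psmb9, the counterpart of Psmb6, was at 7.2, 7.4 and 7.1 in Prlr-/- P9.5 islets, against 7, 7.1 and 7.1 in Prlr-/- NP islets. Prlr+/+ islets had 7.4, 7.3 and 7.3 at P9.5, against 7.2, 6.9 and 7.2 in NP mice. Its change was 0.17 (95% confidence interval -0.07 to 0.41) in Prlr-/- and 0.23 (-0.01 to 0.47) in Prlr+/+ islets. The arrays of the stages were apart in Prlr+/+ islets but not in Prlr-/- islets. Psmb10, the counterpart of Psmb7, was at 6.7, 6.6 and 6.5 in Prlr-/- P9.5 islets, against 6.6, 6.4 and 6.4 in Prlr-/- NP islets.

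In Prlr+/+ islets Psmb10 was at 6.7, 6.7 and 6.6 at P9.5, against 6.7, 6.5 and 6.7 in NP mice. It changed by 0.13 (-0.08 to 0.35) in Prlr-/- and 0.03 (-0.18 to 0.25) in Prlr+/+ islets. All 6 intervals of the immunoproteasome genes include 0, and the intervals of Psmb10 and Psmb9 leave out a 1.5-fold change. Its size is outside the intervals of Psmb8 in Prlr+/+ islets but inside them in Prlr-/- islets. These intervals hold for the deposited scaling. With each array centred on its median, Psmb8 and Psmb9 passed as higher by the adjusted p in Prlr-/- islets, under the fold minimum. At that scaling 24.2% of all probe sets passed as higher. The mean levels of Psmb8 (6.17) and Psmb10 (6.59) are below the range of 7 to 10 used for the background.

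**Figure D2:**
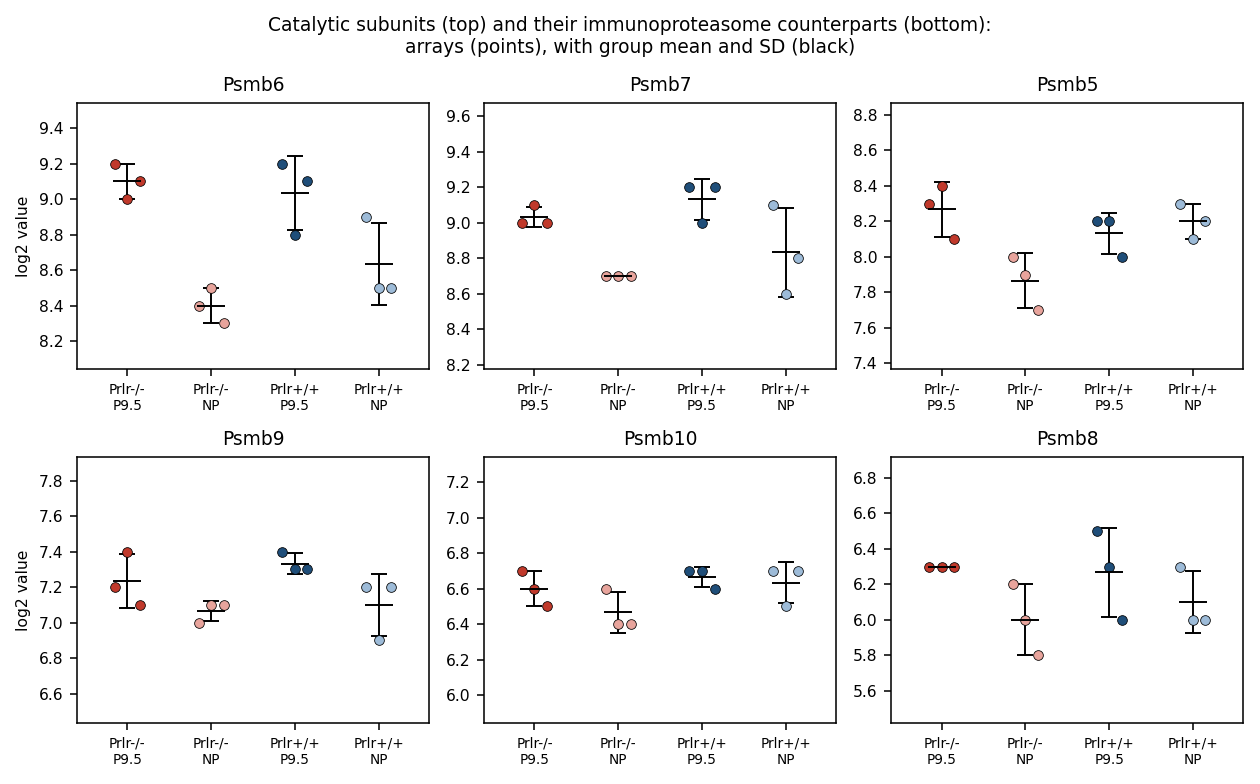
Log2 value (y axis, the same span in each panel) of the constitutive catalytic genes (top row) and the immunoproteasome genes that replace them (bottom row) on each array (points), by group, with group mean and SD in black (n = 3). Psmb6 lies at 9 to 9.2 in Prlr-/- P9.5 islets, above its 8.3 to 8.5 in Prlr-/- NP islets, and the stages overlap for Psmb10 in both genotypes.

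Among the 17 genes of the 19S cap, 12 passed by the adjusted p in Prlr-/- and 10 in Prlr+/+ islets, with medians of 0.47 and 0.40, and 4 and 5 were called. Those that passed were 70.6% and 58.8%, against 38.2% and 27.1% of probe sets of 1 gene at a level of 7 to 10. Those called were 23.5% and 29.4%, against 16.0% and 12.1% called higher at that level. The lid held the largest changes of all proteasome genes. Psmd6, a structural lid subunit, was at 9.4, 9.2 and 9.3 in Prlr-/- P9.5 islets, against 8, 8.1 and 8.2 in Prlr-/- NP islets, and at 9.5, 9.3 and 9.3 in Prlr+/+ P9.5 islets, against 8.4, 8.3 and 8.3 in Prlr+/+ NP islets. At P9.5 it was 2.30-fold higher in Prlr-/- islets (1.2 ± 0.10 on the log2 scale, standard error; limma, adjusted p = 5.56e-05) and 2.05-fold higher in Prlr+/+ islets (1.03 ± 0.10, adjusted p = 0.000167).

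Psmd14, the enzyme that cuts the ubiquitin chain off the substrate, was at 8.4, 8.2 and 8.3 in Prlr-/- P9.5 islets, against 7.3, 7.2 and 7.1 in Prlr-/- NP islets. In Prlr+/+ islets it was at 8.3, 8.2 and 8.3 at P9.5, against 7.4, 7.3 and 7.1 in NP mice. The rise came to 1.10 ± 0.10 (standard error; limma, adjusted p = 9.52e-05) in Prlr-/- and 1.00 ± 0.10 (adjusted p = 0.000276) in Prlr+/+ islets. For both genes the lowest P9.5 array lay at least 0.8 above the highest NP array of the same genotype.

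Psmd7, which pairs with Psmd14, and Psmd12 changed by 0.53 and 0.50 in Prlr-/- and by 0.67 each in Prlr+/+ islets, where they were called. Psmd8 (0.47 in Prlr-/-, 0.30 in Prlr+/+) passed by the adjusted p alone. Psmd13 (0.47 and 0.50), Psmd11 (0.17 and 0.20) and Psmd3 (0.13 and -0.20) did not pass. Psmd3, another structural lid subunit, was at 7.7, 7.4 and 7.5 in Prlr-/- P9.5 islets, against 7.5, 7.3 and 7.4 in Prlr-/- NP islets, and at 7.6, 7.5 and 7.3 in Prlr+/+ P9.5 islets, against 7.5, 7.9 and 7.6 in Prlr+/+ NP islets. Psmd7 lost its call in Prlr+/+ islets without Prlr+/+ P9.5 replicate 1.

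Of the 6 base ATPases, Psmc6 was called in both genotypes. It was at 8.3, 8 and 8.4 in Prlr-/- P9.5 islets, against 7.3, 7.8 and 7.5 in Prlr-/- NP islets, and at 8.4, 8.2 and 8.1 in Prlr+/+ P9.5 islets, against 7.7, 7.5 and 7.4 in Prlr+/+ NP islets. The stages were apart, and the change was 0.70 (standard error 0.15) in each genotype, with an adjusted p of 0.00496 in Prlr-/- and 0.00735 in Prlr+/+ islets from limma. The other 5 changed by 0.23 to 0.43 in Prlr-/- and by 0.13 to 0.47 in Prlr+/+ islets, and 3 of them passed by the adjusted p in each genotype. Psmc1 was called in Prlr+/+ islets by its second, dimmer probe set (0.60), while its main probe set gave 0.40. Without Prlr-/- NP replicate 1, Psmc6 lost its call in Prlr-/- islets.

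Of the 3 base subunits that are not ATPases, Psmd4, a receptor for ubiquitin chains, had the smallest spread between arrays of all 49 genes (pooled SD 0.08). It was at 8.1, 8 and 8.1 in Prlr-/- P9.5 islets, against 7.4, 7.5 and 7.5 in Prlr-/- NP islets, and at 8.2, 8.2 and 8 in Prlr+/+ P9.5 islets, against 7.6, 7.7 and 7.6 in Prlr+/+ NP islets. It rose by 0.60 (adjusted p = 0.000621 from limma) in Prlr-/- islets, a call that ended when NP replicate 1, P9.5 replicate 1 or P9.5 replicate 3 of that genotype was left out. In Prlr+/+ islets it changed by 0.50 (adjusted p = 0.00275). Psmd1 and Psmd2, the large scaffold subunits, changed by 0.57 and 0.43 in Prlr-/- islets and passed by the adjusted p, and by 0.17 and 0.27 in Prlr+/+ islets, where they did not. The second probe set of Psmd2 gave 0.43 and 0.33 and passed in both.

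Activators can take the place of the 19S cap on the core. Psme4 (PA200), which acts in the nucleus, was at 8.9, 8.8 and 9 in Prlr-/- P9.5 islets, against 8.2, 8.3 and 8.1 in Prlr-/- NP islets, and at 9, 9.2 and 8.9 in Prlr+/+ P9.5 islets, against 8.2, 8.5 and 8.7 in Prlr+/+ NP islets. The stages were apart in both genotypes. It rose by 0.70 (adjusted p = 0.00245 from limma) in Prlr-/- islets and was called, and its change of 0.57 (adjusted p = 0.0107) in Prlr+/+ islets was just under the fold minimum.

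Psme1 and Psme2 form the interferon-inducible PA28 ring. Psme1 was at 8.8, 8.9 and 8.7 in Prlr-/- P9.5 islets, against 8.3, 8.2 and 8.2 in Prlr-/- NP islets, and at 8.7, 8.7 and 8.6 in Prlr+/+ P9.5 islets, against 8.9, 8.5 and 8.5 in Prlr+/+ NP islets. Its change was 0.57 (adjusted p = 0.00359 from limma) in Prlr-/- and 0.03 (adjusted p = 0.859) in Prlr+/+ islets. Psme2 changed by 0.33 in each genotype, and Psme3, which forms the nuclear PA28 gamma ring, by 0.13 and 0.17, and neither passed.

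Assembly chaperones build the core and the base and then leave. Psmg2, which pairs with Psmg1 to order the alpha ring, was at 7, 6.8 and 6.9 in Prlr-/- P9.5 islets, against 6.2 on each Prlr-/- NP array, and at 6.8, 6.9 and 6.9 in Prlr+/+ P9.5 islets, against 6.5, 6.2 and 6.1 in Prlr+/+ NP islets. It rose by 0.70 (adjusted p = 0.00079 from limma) in Prlr-/- and by 0.60 (adjusted p = 0.00298) in Prlr+/+ islets. In Prlr+/+ mice that call ended when NP replicate 2, NP replicate 3, P9.5 replicate 2 or P9.5 replicate 3 was left out. Psmg1 changed by 0.47 in each genotype and passed by the adjusted p alone, as did Psmd10 (0.50 in each).

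Psmd5, a chaperone of the base, changed by 0.50 in Prlr-/- and 0.40 in Prlr+/+ islets. Psmd9, another base chaperone, changed by 0.30 and 0.07 and passed in Prlr-/- islets. Psmg3 and Psmg4, the second chaperone pair of the alpha ring, were dim, between 5.5 and 6.1 on all arrays, and changed by -0.17 and 0.03 in Prlr-/- and by -0.07 and 0.17 in Prlr+/+ islets. Neither passed.

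None of the 4 remaining genes was called. Psma8 and Psmb11 lay between 4.6 and 5.7 on all arrays. Psmb11 changed by -0.40 (adjusted p = 0.0275 from limma) in Prlr-/- and -0.10 in Prlr+/+ islets, and Psma8 by -0.13 and -0.30. Psmc3ip, a factor of meiotic recombination, changed by -0.20 and -0.07, and Psme3ip1, a partner of Psme3, by 0.20 and 0.07.

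The means of the classes over their genes showed how the arrays were placed. The alpha ring mean was 8.44, 8.30 and 8.36 in Prlr-/- P9.5 islets, against 7.76, 7.76 and 7.80 in Prlr-/- NP islets, and 8.53, 8.47 and 8.53 in Prlr+/+ P9.5 islets, against 8.04, 7.69 and 7.64 in Prlr+/+ NP islets. The lid mean was 8.49, 8.26 and 8.46 in Prlr-/- P9.5 islets, against 7.80, 7.85 and 7.85 in Prlr-/- NP islets, and 8.55, 8.43 and 8.31 in Prlr+/+ P9.5 islets, against 7.98, 7.94 and 7.81 in Prlr+/+ NP islets. Prlr+/+ NP replicate 1 was the highest NP array for the alpha ring, the beta ring, the immunoproteasome, the ATPases, the other base subunits, the lid and the assembly chaperones. For the activators it was not. Without it 17 genes were called in Prlr+/+ islets, and without Prlr+/+ NP replicate 2 10 genes were.

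**Figure D3:**
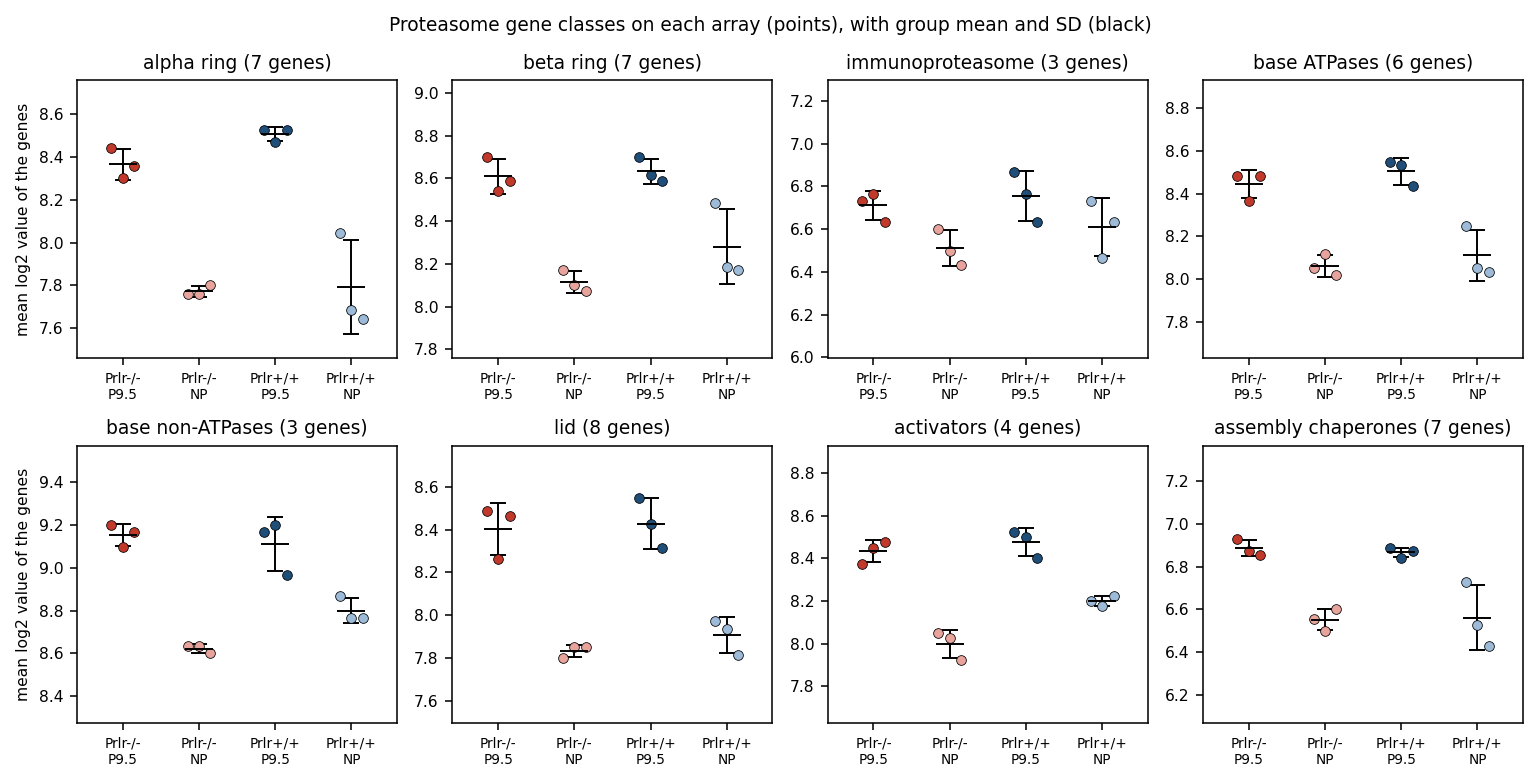
Mean log2 value (y axis, the same span in each panel) of the genes of each class on each array (points), by group, with group mean and SD in black (n = 3). The P9.5 arrays (8.30 to 8.53) lie above the NP arrays (7.64 to 8.04) for the alpha ring, while for the immunoproteasome the stages are apart in Prlr-/- islets (6.63 to 6.77 at P9.5, 6.43 to 6.60 in NP mice) and overlap in Prlr+/+ islets (6.63 to 6.87 at P9.5, 6.47 to 6.73 in NP mice).

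Between the genotypes, 0 of the 49 genes were called. In NP islets 0.101% of all probe sets were called, and the median difference of the proteasome genes, Prlr-/- minus Prlr+/+, was -0.07, with -0.17 after median centring, -0.02 after quantile normalization and 0.01 after cyclic loess, where the sign turned. At an unadjusted p under 0.05, 4 genes were lower in Prlr-/- NP islets (Psme1, Psmb5, Psmd1 and Psmd6), where 5.19% of all probe sets were, and 0 were higher. The Prlr-/- NP arrays lay below the Prlr+/+ NP arrays for 6 genes, where 5.22% of all probe sets did. Among the 39 genes with a mean level of 7 to 10 these counts were 4 and 5, against 12.2% and 13.1% of the probe sets of 1 gene at that level, so they do not stand above their background. The difference was largest for Psme1 (-0.40, 95% confidence interval -0.65 to -0.15, adjusted p = 0.211 from limma) and Psmb5 (-0.33, -0.58 to -0.08, adjusted p = 0.275).

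At P9.5, 0.231% of all probe sets were called between the genotypes, and the median of the proteasome genes was again -0.07. At an unadjusted p under 0.05, 2 genes were lower in Prlr-/- islets (Psma6 and Psma7), where 2.63% of all probe sets were, and 0 were higher. The Prlr-/- arrays lay below the Prlr+/+ arrays for 4 genes, where 2.91% of all probe sets did. At a mean level of 7 to 10 the counts were 2 and 4 of 39, against 2.96% and 3.48%. Psma7 was at 8.4, 8.3 and 8.3 in Prlr-/- P9.5 islets and at 8.7, 8.5 and 8.7 in Prlr+/+ P9.5 islets, a difference of -0.30 (adjusted p = 0.703 from limma). All 7 alpha ring genes had a negative estimate, from -0.30 to -0.03, and none passed by the adjusted p. Negative estimates were also found for 30 of the 49 genes, for 15799 of all 35511 probe sets and for 2551 of 6926 at a level of 7 to 10. The 7 genes were read on the same arrays, so their shared sign is not 7 separate observations.

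The change with pregnancy was compared between the genotypes by the interaction, the change in Prlr-/- minus that in Prlr+/+ islets. None of the 49 genes was called, where 0.0788% of all probe sets were, and the median was 0, with 0.10 after median centring, -0.04 after quantile normalization and -0.07 after cyclic loess. At an unadjusted p under 0.05, 3 genes had a larger change in Prlr-/- islets, where 4.26% of all probe sets did, and 0 a smaller one. All 3 have a mean level of 7 to 10, where 9.59% of the probe sets of 1 gene did and the median was 0.10. They were Psme1 (0.53, 95% confidence interval 0.18 to 0.89, adjusted p = 0.318 from limma), Psmb5 (0.47, 0.11 to 0.82, adjusted p = 0.385) and Psmd1 (0.40, 0.08 to 0.72, adjusted p = 0.406). In all 3 the Prlr-/- NP arrays lay below the Prlr+/+ NP arrays, and the P9.5 arrays of the genotypes overlapped. Among the genes called with pregnancy, Psma7 had the lowest estimate (-0.23, -0.56 to 0.09).

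**Figure D4:**
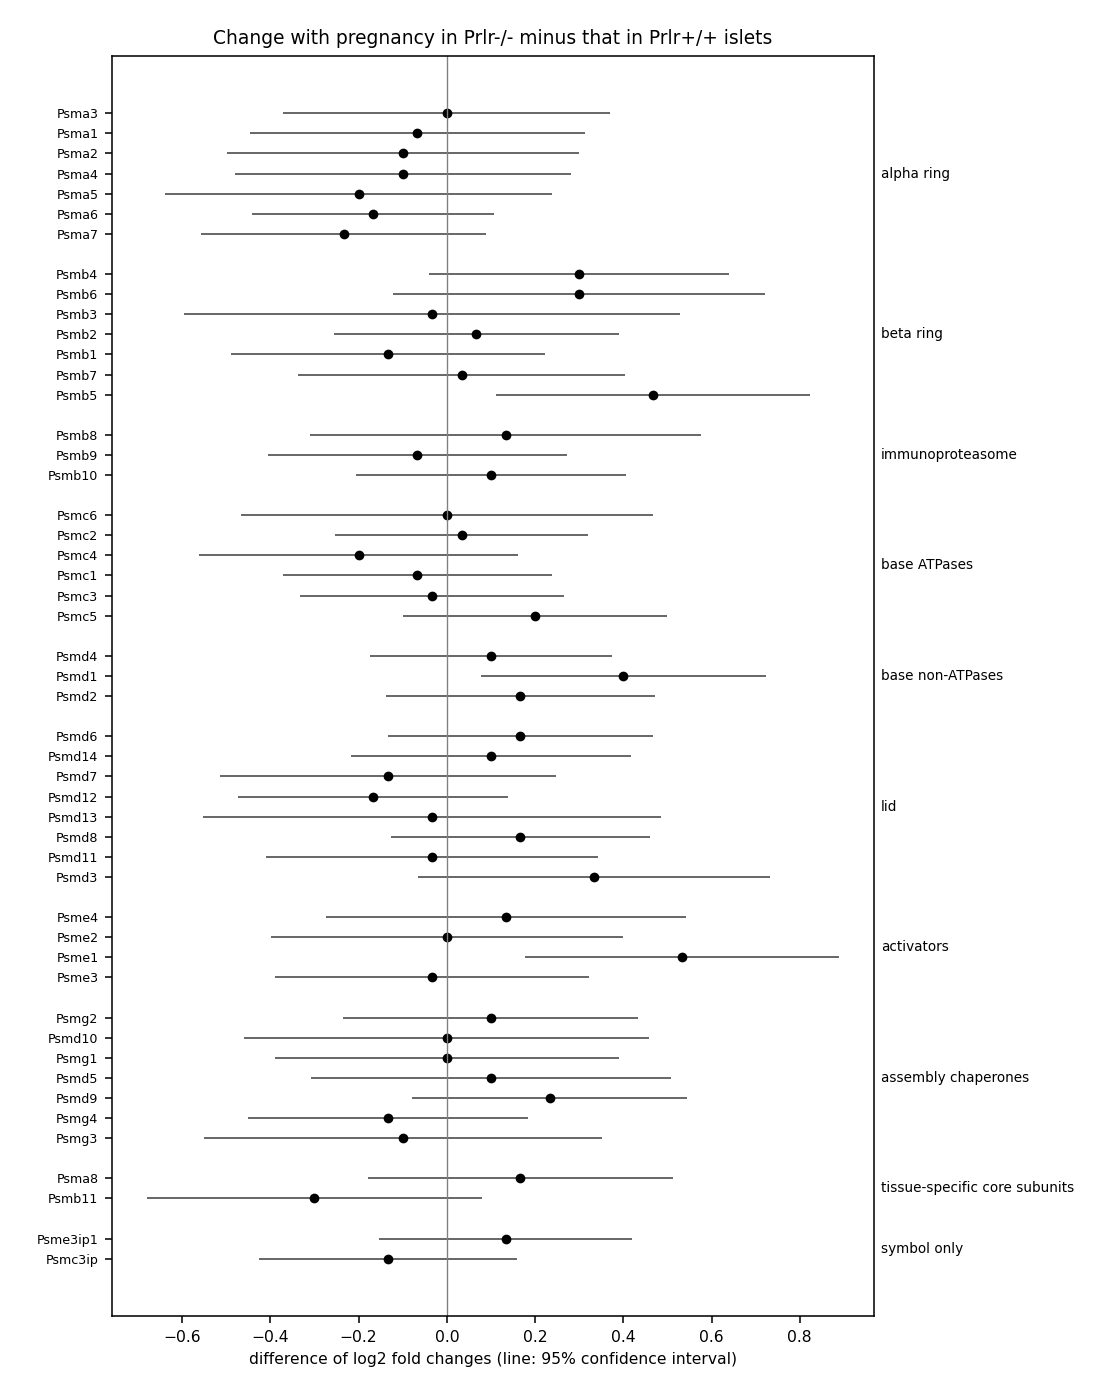
Difference between the genotypes in the change with pregnancy (x axis, log2 fold change in Prlr-/- minus that in Prlr+/+ islets) for each of the 49 proteasome genes, with its 95% confidence interval. The estimates run from -0.30 (Psmb11) to 0.53 (Psme1), and none passed after adjustment.

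Of 37 listed genes that work with the proteasome, 27 were measured by a probe set that names no other gene. In Prlr-/- islets 7 were called higher at P9.5 and 0 lower, with a median of 0.43, and in Prlr+/+ islets 3 higher and 1 lower, with a median of 0.33. The called share, 25.9% higher in Prlr-/- and 11.1% in Prlr+/+ islets, is to be read against 16.0% and 12.1% of probe sets at a level of 7 to 10, so that in Prlr+/+ islets it was near the background. Uba6, an enzyme that activates ubiquitin, was at 8.7, 8.4 and 8.9 in Prlr-/- P9.5 islets, against 7.2, 7.7 and 7.6 in Prlr-/- NP islets, and at 8.6, 8.9 and 8.3 in Prlr+/+ P9.5 islets, against 7.8 on each Prlr+/+ NP array. It rose by 1.17 (adjusted p = 0.000679 from limma) in Prlr-/- and 0.80 (adjusted p = 0.00808) in Prlr+/+ islets.

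Ufd1, a partner of the unfoldase Vcp, rose by 0.73 in Prlr-/- and 0.77 in Prlr+/+ islets, and Txnl1, a thioredoxin bound to the cap, by 0.90 and 0.63. Uchl5 and Usp14, the ubiquitin proteases that bind the cap, rose by 0.80 and 0.77 in Prlr-/- islets and changed by 0.57 each in Prlr+/+ islets, under the fold minimum. Vcp (0.60) and Ubr1 (0.63), a ubiquitin ligase, were called in Prlr-/- islets and changed by 0.20 and 0.50 in Prlr+/+ islets. Bag6, a chaperone of misplaced membrane proteins, fell by 0.73 (adjusted p = 0.000864 from limma) in Prlr+/+ islets and changed by -0.53 in Prlr-/- islets. None of the 27 was called for the interaction. Calls that ended without 1 array were those of Txnl1 in Prlr+/+ islets (NP replicate 3 or P9.5 replicate 1), Ubr1 (Prlr-/- P9.5 replicate 3) and Vcp (NP replicate 2 or 3, or P9.5 replicate 2 or 3, of Prlr-/- mice). Quantile and cyclic loess normalization ended these 3 calls and that of Ufd1 in Prlr-/- islets, and cyclic loess also that of Usp14.

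Pomp, the maturation factor of the core, changed by 0.50 in Prlr-/- and 0.43 in Prlr+/+ islets and passed by the adjusted p alone. Nfe2l1, which raises proteasome genes when the proteasome is inhibited, was at 8.8 on each Prlr-/- P9.5 array, against 8.8, 8.8 and 8.9 in Prlr-/- NP islets, and at 8.9, 8.9 and 8.8 in Prlr+/+ P9.5 islets, against 9, 8.9 and 9.1 in Prlr+/+ NP islets. Its RNA changed by -0.03 (95% confidence interval -0.22 to 0.15) in Prlr-/- and -0.13 (-0.32 to 0.05) in Prlr+/+ islets.

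Antigen presentation uses the peptides that the immunoproteasome makes, and 13 of 17 listed genes were measured. At P9.5, 2 of the 13 (15.4%) were called higher and 1 lower in Prlr-/- islets. In Prlr+/+ islets 1 (7.69%) was called higher and 0 lower. Of the probe sets of 1 gene at a level of 7 to 10, 16.0% and 12.1% were called higher, so the list did not stand above that background. B2m, the light chain of MHC class I, rose by 0.87 (adjusted p = 0.00594 from limma) in Prlr-/- and 1.03 (adjusted p = 0.0036) in Prlr+/+ islets. Erap1, which trims the peptides, rose by 0.77 in Prlr-/- islets and changed by 0.57 in Prlr+/+ islets, just under the fold minimum, and cyclic loess normalization ended its call. Nlrc5, an activator of MHC class I genes, fell by 0.90 (adjusted p = 0.000186) in Prlr-/- islets and changed by -0.47 in Prlr+/+ islets. The peptide transporter genes Tap1 and Tap2 changed by 0.13 and 0.23 in Prlr-/- and by 0.30 and 0.37 in Prlr+/+ islets.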

How the data were processed

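Total RNA of islets from 12 samples was hybridised to MoGene_1.0_ST arrays. Per the methods, the authors preprocessed the raw arrays in R 2.12.2 with robust multichip analysis in aroma.affymetrix, and deposited 1 log2 value per probe set and array, rounded to 0.1. Those values already carry the authors' background correction and normalization. No genome build is given in the sources used here, so probe sets have no coordinates. Of 35511 probe sets, 21789 name 1 gene, and 21698 symbols were matched through Entrez.

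One model of 4 group means was fitted to all probe sets with limma 3.58.1 in R 4.3.3, with 5 contrasts tested by eBayes and Benjamini-Hochberg adjustment over all probe sets. It was tested on simulated data first. An exact permutation test of 3 against 3 arrays cannot go below p = 0.1. Named are the 6 catalytic and immunoproteasome genes, every called gene, and the largest changes per class. Members and lists were chosen with earlier results of these data known. Alternatives covered normalization, filters, fold minimum, prior, weights, pairing and left-out arrays.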

Additional observations from a re-analysis of the deposited data

How the results depend on the processing

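Of 1380 values of named genes under the settings tried, 1314 kept their side of the threshold, 65 lost a call and 1 turned its sign. This tally does not measure stability. It includes catalytic and immunoproteasome genes that were not called as deposited. It also includes settings that cannot move the estimate, such as leaving out an array of the genotype not compared. In Prlr-/- islets the 12 calls became 27 after median centring, 4 after quantile and 4 after cyclic loess normalization. In Prlr+/+ islets the 13 calls became 15, 9 and 9. Without a fold minimum, or with 1.2, 31 genes passed in Prlr-/- and 25 in Prlr+/+ islets, and with 2 there were 2 in each. Without a fold minimum, median centring gave 40 and 29, quantile normalization 22 and 20, and cyclic loess 17 and 20. Cyclic loess, and the fits joining a normalization with no fold minimum, were chosen after seeing the data. The proteasome calls lost after quantile or cyclic loess normalization kept an adjusted p of at most 0.0246 and fell below the fold minimum.

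Median centring moved the median of all probe sets by 0.17 in the Prlr-/- pregnancy comparison and by 0.07 in the Prlr+/+ one. Of all calls, 76.2% were then higher in Prlr-/- islets, against 51.2% as deposited, and 70.2% in Prlr+/+ islets, against 57.7%. In the NP comparison of the genotypes it moved the median by -0.10, and 69.7% of calls were higher, against 91.7%.

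Leaving out each array in turn gave 10 to 15 calls in Prlr-/- islets (lowest without Prlr-/- P9.5 replicate 1, highest without Prlr-/- P9.5 replicate 2) and 10 to 17 in Prlr+/+ islets, and 0 in the other 3 comparisons. The change of Psmb10 in Prlr+/+ islets was -0.033 to 0.067 over the left-out arrays, negative without Prlr+/+ NP replicate 2. Fitted with the replicate number as a block, the counts were 12 and 13 for pregnancy and 0, 0 and 0 for the genotype comparisons and the interaction. Same-numbered arrays of different groups deviated together, at a correlation over 0.1, in 7 of 18 pairs (-0.11 to 0.23). Arrays with different numbers were not compared in this way, so whether the number marks shared handling was not tested. The interaction has no fit of fewer groups. The rounding to 0.1 and 3 arrays in each group limit the precision.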

Other observations

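The COP9 signalosome and the eIF3 translation factor are built like the proteasome lid, from subunits of the same fold families, and they were looked at after the lid values were seen. Cops5, the enzyme of the signalosome and a relative of Psmd14, rose by 1.07 (adjusted p = 0.000332 from limma) in Prlr-/- and by 0.87 (adjusted p = 0.00177) in Prlr+/+ islets at P9.5. Cops2, the relative of Psmd11, rose by 0.97 and 0.90, Cops4 by 0.80 and 0.73, and Cops3 by 0.60 and 0.70. Quantile and cyclic loess normalization ended both calls of Cops3, and that in Prlr-/- islets also ended when NP replicate 1, P9.5 replicate 1 or P9.5 replicate 3 of that genotype was left out. As deposited, 4 of the 9 signalosome genes were called higher in each genotype and 0 lower, with a median of 0.47 in Prlr-/- and 0.53 in Prlr+/+ islets, where 7.44% and 5.73% of all probe sets, and 16.0% and 12.1% of those at a level of 7 to 10, were called higher. Cops6, Cops7a, Cops7b, Cops8 and Cops9 were not called. Of 11 eIF3 genes, 0 were called in Prlr-/- islets and 1, Eif3e (0.87), in Prlr+/+ islets, with medians of 0.30 and 0.13, a count near or under that background. Eif3e changed by 0.47 in Prlr-/- islets, and its interaction of -0.40 did not pass (adjusted p = 0.464).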
